A study of Mus musculus with 12 samples.

Results

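The comparison described here sets 2 lines of the same mouse cells against each other, each carrying a different hairpin against the same gene, Plcg1. Its members are the 4 arrays labelled PLCy1 sh 14 (sh14 here) and the 4 labelled PLCy1 sh 133 (sh133), chosen by that label alone, 8 of the 12 arrays of the series. Both lines were sampled at 1, 6, 12 and 22 h, with 1 array for each line and time, so every sh14 array has a sh133 array of the same time. The remaining 4 arrays are of a line with a scrambled hairpin (scr) at the same times. They enter as a reference level, in the fitted differences through the time and date terms, and in the estimate of the spread. The cells are I/11, an immature erythroid progenitor line from the fetal liver of mice without p53, so that no sample has p53. All were kept in serum-free medium with erythropoietin (1 U/ml), stem cell factor (100 ng/ml) and dexamethasone (1 µM), and the hairpins were brought in with a pLKO lentivirus that carries puromycin resistance. Each hairpin is represented by 1 stably infected line, so the effect of a hairpin and a property of the line that carries it cannot be told apart. The event from which the hours are counted is not in the labels, nor is whether the arrays of a line come from separate cultures.

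The array titles hold 2 dates, and the labels do not say what they record. All sh14 arrays and the sh133 arrays at 6 and 12 h carry the first. The sh133 arrays at 1 and 22 h carry the second, as do all scr arrays. The 6 and 12 h pairs therefore lie within 1 title date and the 1 and 22 h pairs lie across both, and matched differences are given for each kind. A p-value comes from limma with hairpin, time and title date as terms over all 12 arrays. It measures the spread that those terms leave, which may be technical, and no spread between cultures.

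Phospholipase C gamma 1, the product of Plcg1, is recruited to activated receptors and their adaptors and cleaves the membrane lipid PIP2 into inositol trisphosphate and diacylglycerol. The first releases calcium from the endoplasmic reticulum, which acts through calcineurin on NFAT factors, and the second activates protein kinase C, protein kinase D and RasGRP proteins. In erythroid progenitors the erythropoietin receptor signals through JAK2 and STAT5, and the series was set up to ask what Plcg1 does below that receptor. A short hairpin RNA is processed into a small guide that leads a messenger RNA with a matching site to its destruction. Hairpins against different stretches of 1 transcript share their intended target and differ in the other transcripts that they can match, which is why studies use more than 1. The hairpin sequences were not in the sources used here and are not printed.

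Array medians lay between 1.84 and 1.92 log2, and a gene whose mean in a line is at or under 1.92 is called near background below. The difference between the 3′ and 5′ actin control probe sets was 0.51 to 0.58 in sh14 and 0.34 to 0.53 in sh133. Over the genes tested, every sh14 array was most similar to another sh14 array, and the sh133 arrays at 6, 12 and 22 h to another sh133 array. The sh133 array at 1 h was closest to the scr array at 1 h (r = 0.990 across genes). Of 8 erythroid markers measured 7, among them Gata1, Klf1, Epor and Tfrc, were above background in both lines, and the alpha globin Hba-a1 was near background in both. Of 8 myeloid markers 3 were above background in each line, and of 5 lymphoid markers 1. Those above it were Elane, Csf1r, Spi1 and Pax5, with Spi1 the brightest (a mean of 4.67 in sh14 and 4.76 in sh133). The myeloid genes Mpo, Itgam and S100a8 and the lymphoid genes Cd3e and Rag1 were near background in both lines. Of 5 megakaryocyte markers 5 were above background in sh14 and 4 in sh133. Of 7 mast cell and basophil markers it was 5 in sh14 and 3 in sh133.

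Plcg1 itself was lower in sh14 than in sh133 at each of the 4 times, by a difference that did not pass the test. Its log2 signal in sh14 was 4.16, 3.86, 4.27 and 4.30 at 1, 6, 12 and 22 h, and in sh133 it was 4.53, 4.35, 4.37 and 4.39. The 4 arrays of sh14 all lay below the 4 of sh133, the highest sh14 value (4.30, at 22 h) just under the lowest of sh133 (4.35, at 6 h). The scr arrays read 4.74, 4.45, 4.61 and 4.31. The fitted difference, sh14 minus sh133, was -0.25 ± 0.14 (SE), a signal of 84% of that in sh133, with a limma adjusted p of 0.295. Within the shared title date it was -0.49 at 6 h and -0.09 at 12 h. A dimmer Plcg1 probe set was near background, at a mean of 1.53 in both lines, and averaged 0.01 over the 4 pairs. No protein was measured.

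Plcg2, which encodes the sister enzyme PLC gamma 2, stood at similar levels in both lines. It read 5.93, 5.44, 5.77 and 5.40 in sh14 and 6.07, 5.45, 5.55 and 5.56 in sh133, with the arrays interleaved. The fitted difference was 0.08 ± 0.11 (adjusted p = 0.708), with a 95% confidence interval of -0.17 to 0.33, and its sign turned to -0.02 without the date term. Of 32 tested genes that encode PLC, protein kinase C and D enzymes and their adaptors, 2 were higher in sh14 and 3 lower, 15.6% of the list. For comparison, 14.6% of the 12673 genes tested passed the threshold in either direction, 7.54% higher in sh14 and 7.11% lower. The pathway list therefore stood close to the background share, and its median difference was 0.05 against 0.00 over all genes.

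The differences of the 5 members that passed ranged from 0.57 to 1.75 in size. Lat, the adaptor that docks PLC gamma in T cells and mast cells, was higher in sh14, at 5.91, 4.88, 5.00 and 4.38 against 5.23, 3.78, 3.92 and 3.41 at 1, 6, 12 and 22 h. Both lines were highest at 1 h and lowest at 22 h, each sh14 array lay above the sh133 array of its time, and the fitted difference was 1.10 ± 0.15 (adjusted p = 0.00107). Gab1, a docking protein below growth factor receptors, differed by 0.57 ± 0.16 (adjusted p = 0.0347), with 0.11 at 1 h and 0.86 at 22 h across the title dates. Protein kinase D3 (Prkd3) was lower in sh14, between 4.01 and 4.32 on all 4 arrays against 5.73 to 5.97 in sh133, a signal 29.7% as high (-1.75 ± 0.11, adjusted p = 1.17e-05). Rasgrp2, an exchange factor switched on by calcium and diacylglycerol, was lower as well (-1.04 ± 0.17, adjusted p = 0.00287), and its lines did not overlap. The tyrosine kinase Syk was lower (-0.79 ± 0.12, adjusted p = 0.00214), but its sh14 mean was near background and the 1 h arrays read 1.53 and 1.56.

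Among 23 genes of calcium release and NFAT signalling, 1 was higher in sh14 and 2 lower, 13% of the list against 14.6% of all genes tested. Itpr2, which encodes a receptor that releases stored calcium, read 4.20, 4.13, 4.57 and 4.27 in sh14 and 3.79, 2.91, 3.03 and 3.06 in sh133. Its arrays did not overlap, and the difference was 1.29 ± 0.23 (adjusted p = 0.0048). The plasma membrane calcium pump Atp2b4 (-0.52 ± 0.11, adjusted p = 0.00967) and the regulatory subunit of calcineurin Ppp3r1 (-0.50 ± 0.11, adjusted p = 0.0139) were lower. Ppp3r1 missed the threshold when its probe sets were averaged, and its other probe set averaged 0.01 over the 4 pairs. Without the sh133 array at 12 h or at 6 h, 0 genes of this list passed.

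Over all genes, 955 were higher in sh14 and 901 lower at an adjusted p under 0.05, together 1856. The difference had the same sign in all 4 matched pairs for 1730 of these, 93.2%, against 41.7% of all genes tested. The genes were called on the same arrays that form the pairs, so a higher share among them is partly given by the selection. The median size of the difference was 0.64 log2 among them and 0.17 over all genes, beside a median standard error of 0.13. Differences of at least 1 log2, a factor of 2 or more, were found for 147 genes higher and 150 lower, and of at least 3 log2 for 4 higher and 3 lower. The 4 arrays of sh14 lay wholly apart from the 4 of sh133 for 2522 genes, 19.9% of those tested. Of the sh133 arrays, only those at 6 and 12 h set the size of the fitted differences. Without the sh133 array at 12 h 390 genes passed, and without the one at 6 h 413.

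The pairs across the title dates can be set beside those within. Across the 12673 genes, the mean difference of the 6 and 12 h pairs and that of the 1 and 22 h pairs had a correlation of 0.78. Single pairs correlated at 0.79 between 6 and 12 h and at 0.58 between 1 and 22 h. Genes are not independent replicates, the arrays of a line share that line, and within each date set they share whatever the date records, so these values are descriptions. The SD of the differences over genes was 0.41 at 1, 6 and 12 h and 0.44 at 22 h. Each SD includes the noise of single arrays, and at 1 and 22 h whatever the date records. Similar SDs therefore do not show that the lines stood equally far apart at each time.

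**Figure D1:**
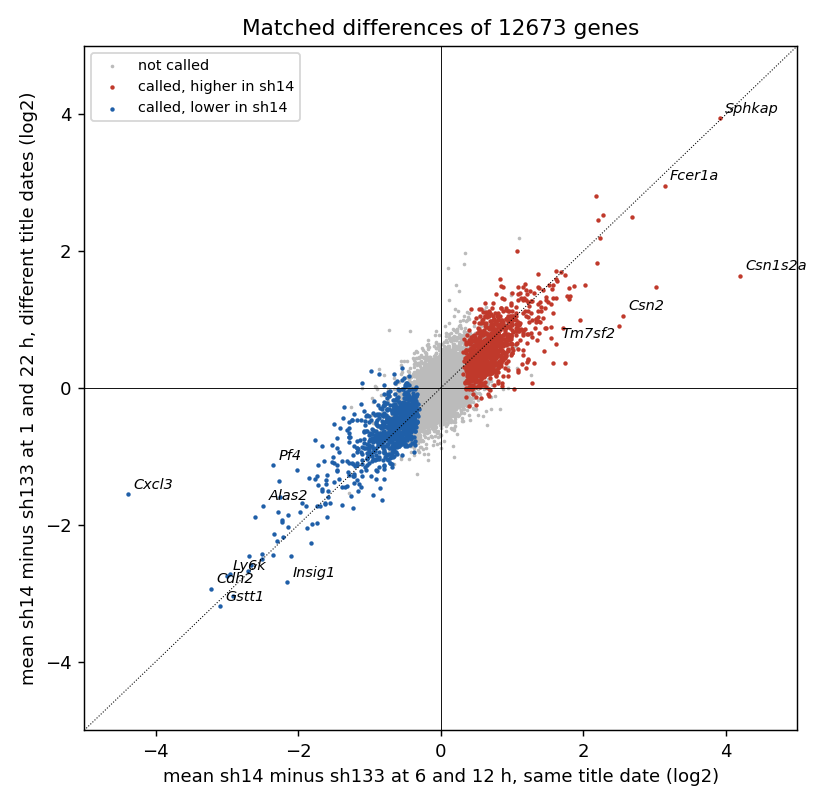
Mean matched difference, sh14 minus sh133 in log2, of each of 12673 genes at 6 and 12 h (x axis, same title date) against that at 1 and 22 h (y axis, different title dates), with the dotted line marking equal values. Genes past the threshold are red where higher in sh14 (955) and blue where lower (901); most named genes lie near the dotted line, while Csn1s2a, Csn2, Cxcl3 and Pf4 lie well off it, with the larger difference at 6 and 12 h.

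Casein genes gave some of the largest differences between the lines. Caseins are the milk proteins of the mammary gland, where the gene for beta casein is a classic target of STAT5, and they stand in the list of STAT5 targets used here. Csn1s2a read 5.91, 6.08, 6.18 and 3.60 in sh14 at 1, 6, 12 and 22 h, and 4.60, 1.96, 1.90 and 1.63 in sh133. The lines were within 1.31 of each other at 1 h, more than 4 log2 apart at 6 and 12 h, where sh133 stood at 1.96 and 1.90, and 1.96 apart at 22 h, where the sh14 level was lower too. Csn2, beta casein, read 6.11, 6.44, 6.38 and 5.27 in sh14 and 5.88, 3.83, 3.88 and 3.37 in sh133. At 1 h the lines were 0.22 apart, and from 6 h on each sh14 array lay at least 1.90 above its partner. Csn1s2b, low throughout, was 3.52, 4.02, 4.01 and 3.21 in sh14 and 2.46, 1.05, 0.94 and 1.32 in sh133, with no overlap. The fitted differences were 4.19 ± 0.40 for Csn1s2a (adjusted p = 0.000166), 3.30 ± 0.30 for Csn1s2b (adjusted p = 0.000116) and 2.59 ± 0.32 for Csn2 (adjusted p = 0.000695). The means of the 4 pairs were smaller, 2.92, 2.25 and 1.81.

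The scr line held these genes as well, at 5.52, 6.71, 6.59 and 5.10 for Csn1s2a and 7.81, 8.45, 8.27 and 7.16 for Csn2. Csn2 was thus higher in scr than in either hairpin line at every time, and the Csn1s2a arrays of scr and sh14 overlapped while sh133 lay apart from 6 h on. The caseins Csn1s1 and Csn3 did not pass the filter on low signals.

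The promoters of 2 of these genes are shown because the pair moved alike while only 1 of them holds the letters that STAT factors bind. Both are the 250 bases before the transcription start, written 5′ to 3′ on the gene's strand, from RefSeq on GRCm38.p6, with matches to TTCNNNGAA, which reads the same on both strands, in capitals. That motif occurs in 7.02% of 32851 promoter windows of this length. The Csn2 window lies at chr5:87699426-87699675 on the minus strand, with a match that starts 93 bases before the start site. The Csn1s2a window lies at chr5:87774200-87774449 on the plus strand and holds none, which says only that these letters are not in this window. Csn1s2b had no entry in the table.
Csn2: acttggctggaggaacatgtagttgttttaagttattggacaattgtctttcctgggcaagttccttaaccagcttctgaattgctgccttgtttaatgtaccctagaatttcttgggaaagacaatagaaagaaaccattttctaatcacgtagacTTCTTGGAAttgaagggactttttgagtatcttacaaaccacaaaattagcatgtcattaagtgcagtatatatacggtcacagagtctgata
Csn1s2a: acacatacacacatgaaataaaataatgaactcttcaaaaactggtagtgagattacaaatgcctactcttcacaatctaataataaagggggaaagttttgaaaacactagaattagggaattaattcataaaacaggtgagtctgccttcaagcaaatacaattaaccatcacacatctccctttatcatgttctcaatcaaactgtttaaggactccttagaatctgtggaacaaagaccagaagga

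The genes of the pathway upstream of STAT5 were tested as a list of their own. Of its 25 genes of erythropoietin receptor, JAK2 and STAT5 signalling 3 were higher in sh14 and 2 lower. That was 20% of the list against 14.6% of all genes tested, and 0 passed without the sh133 array at 12 h or at 6 h. Stat5a, one of the 2 STAT5 genes, read 5.60, 5.64, 5.68 and 5.20 in sh14 and 5.31, 5.03, 5.17 and 4.76 in sh133, each sh14 array above its partner, with a difference of 0.55 ± 0.10 (adjusted p = 0.00534). Its neighbour Stat5b did not differ past the threshold (0.03 ± 0.15, adjusted p = 0.919), nor did the receptor gene Epor (-0.21 ± 0.13, adjusted p = 0.328) or Jak2 (-0.08 ± 0.13, adjusted p = 0.751). Epor read 6.08, 6.57, 6.50 and 6.83 in sh14 and 6.52, 6.78, 6.86 and 7.13 in sh133, below its partner at each time. Pik3r1, the regulatory subunit of PI3 kinase, was higher in sh14 (0.57 ± 0.12, adjusted p = 0.0107), and Ptpn11, which encodes the phosphatase SHP2, was lower (-0.35 ± 0.10, adjusted p = 0.0368), a call that averaging its probe sets ended.

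Among 23 STAT5 targets and feedback genes, 4 were higher in sh14 and 1 lower, with a median of 0.13. That was 21.7% of the list against 14.6% of all genes tested. The 4 were the caseins and Ccnd2. Ccnd2, which encodes cyclin D2, read 7.90, 8.34, 8.25 and 7.84 in sh14 and 7.60, 7.41, 7.50 and 7.38 in sh133, a difference of 0.91 ± 0.12 (adjusted p = 0.00107) that was 0.30 at 1 h and 0.47 at 22 h across dates. Tnfrsf13c, the receptor for the B cell factor BAFF, was lower, at 3.06, 2.62, 3.49 and 3.54 against 5.17, 4.71, 4.86 and 4.88, with no overlap (-1.64 ± 0.21, adjusted p = 0.00087). The feedback inhibitors Cish and the SOCS genes of the list did not pass.

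**Figure D2:**
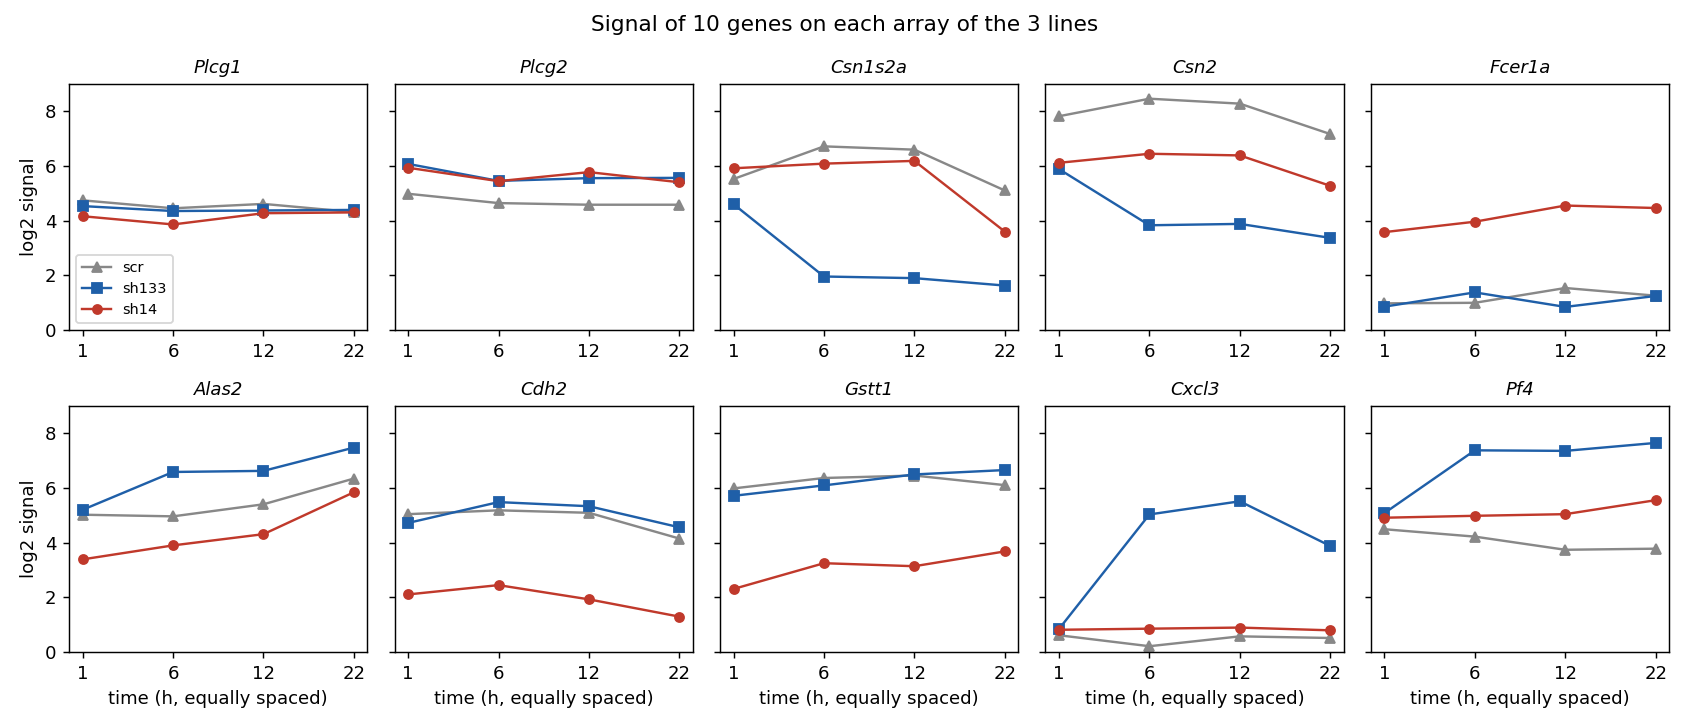
Log2 signal (y axis) at 1, 6, 12 and 22 h (x axis, equally spaced) of 10 genes on each array, 1 array per point, with sh14 as red circles, sh133 as blue squares and scr as grey triangles. Plcg1 and Plcg2 run close together in sh14 and sh133, while Fcer1a, Cdh2 and Gstt1 are apart at all times and Csn2, Cxcl3 and Pf4 are together at 1 h and apart from 6 h on.

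Of 17 genes of mast cells and basophils tested, 6 were higher in sh14 and none lower (1 at an unadjusted p under 0.05, limma), with a median of 0.15. That was 35.3% of the list against 14.6% of all genes tested. Leaving out the sh133 array at 12 h left 3 higher. Fcer1a, the alpha chain of the high-affinity IgE receptor that marks these cells, read 3.58, 3.96, 4.55 and 4.46 in sh14 and 0.86, 1.38, 0.85 and 1.25 in sh133. All sh133 arrays, and the scr arrays at 0.98, 1.00, 1.54 and 1.26, were near background, and the lowest sh14 array (3.58) lay far above the highest of sh133 (1.38). The difference was 3.12 ± 0.23 (adjusted p = 3.57e-05), 2.58 at 6 h and 3.70 at 12 h within the shared date and 2.72 at 1 h and 3.20 at 22 h across. Ms4a2, the beta chain of the same receptor, read 3.84, 3.05, 2.79 and 2.14 in sh14 and 1.93, 1.20, 0.89 and 1.09 in sh133, highest at 1 h in both and higher in sh14 at each time (1.87 ± 0.16, adjusted p = 8.18e-05).

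Regulators of these cells differed as well. Mitf, a transcription factor required for mast cells, read 4.17, 4.96, 4.97 and 5.02 in sh14 and 2.66, 3.88, 3.82 and 3.90 in sh133, with its lowest value at 1 h in both lines (1.10 ± 0.12, adjusted p = 0.000522). Gata2, a factor of progenitors, mast cells and megakaryocytes, read 6.32, 6.10, 6.48 and 6.08 in sh14 and 5.73, 5.39, 5.24 and 5.23 in sh133, a gap of 0.99 ± 0.15 (adjusted p = 0.00224) that a second bright probe set gave as 1.08 within the shared date. Both genes lie on chromosome 6, whose genes were often higher in sh14 as described below, and with chromosomes 4, 6, 12 and 13 left aside 4 of 15 list members passed. Of the protease genes among the defining markers, Mcpt8 and Tpsb2 were near background in both lines. Cpa3, described below, was low but above it in both, at means of 2.93 in sh14 and 2.06 in sh133. The mean level of 7 defining markers was 3.22 to 3.73 in sh14 and 2.21 to 2.79 in sh133. In bulk RNA a change in the number of such cells and a change of RNA per cell cannot be told apart.

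The promoters of the 2 receptor chains and of the mast cell protease Cpa3 are shown as windows that hold AGATAA, letters that GATA factors bind. Whether a GATA factor acts on these genes here was not tested. The windows are 250 bases upstream of the start on GRCm38.p6 (RefSeq), and AGATAA on either strand is in capitals. This motif is in 9.99% of 32851 windows, and it does not overlap the STAT motif above. All 3 windows lie on minus strands: Fcer1a at chr1:173227230-173227479 with 1 match, Ms4a2 at chr19:11623720-11623969 with 3, and Cpa3 at chr3:20242182-20242431 with 1. The windows of Gata2, Mitf and Srgn, searched as well, held none, and a match is a description of letters only. Cpa3 read 3.66, 3.11, 2.64 and 2.31 in sh14 and 2.60, 2.54, 1.66 and 1.44 in sh133, a difference of 0.84 ± 0.17 with an adjusted p of 0.0107.
Fcer1a: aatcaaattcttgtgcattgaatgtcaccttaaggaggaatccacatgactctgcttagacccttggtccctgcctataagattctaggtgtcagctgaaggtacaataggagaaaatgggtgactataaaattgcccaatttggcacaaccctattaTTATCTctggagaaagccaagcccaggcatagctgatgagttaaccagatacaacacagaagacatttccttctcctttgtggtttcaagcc
Ms4a2: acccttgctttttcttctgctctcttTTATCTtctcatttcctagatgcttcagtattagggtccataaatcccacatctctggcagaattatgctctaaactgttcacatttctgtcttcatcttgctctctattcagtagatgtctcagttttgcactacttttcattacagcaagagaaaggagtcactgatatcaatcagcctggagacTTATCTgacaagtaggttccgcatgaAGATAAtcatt
Cpa3: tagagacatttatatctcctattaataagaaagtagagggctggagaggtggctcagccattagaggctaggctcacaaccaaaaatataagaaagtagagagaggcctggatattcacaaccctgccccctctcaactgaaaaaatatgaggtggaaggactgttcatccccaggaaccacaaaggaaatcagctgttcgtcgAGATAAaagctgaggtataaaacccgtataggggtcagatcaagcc

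Some genes of late red cell maturation were lower in sh14. Of 30 tested, 11 passed as lower and 1 as higher, and the median difference was -0.36. That was 40% of the list against 14.6% of all genes tested, of which 7.11% were lower. With chromosomes 4, 6, 12 and 13 left aside, 8 of 22 passed as lower and 1 as higher. Alas2, the erythroid enzyme of the first step of heme synthesis, read 3.39, 3.90, 4.31 and 5.84 in sh14 and 5.20, 6.58, 6.62 and 7.47 in sh133. Both lines were higher at later times, sh14 lay below its partner at each, and the sh14 level at 22 h lay between the sh133 levels at 1 and 6 h. The fitted difference was -2.49 ± 0.21 (adjusted p = 8.04e-05), a signal of 17.8% of that in sh133, with -2.67 at 6 h and -2.31 at 12 h within the shared date and -1.81 at 1 h and -1.63 at 22 h across. The scr arrays, at 5.02, 4.96, 5.40 and 6.34, lay between the lines at each time.

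Slc4a1, the band 3 anion exchanger of the red cell membrane, read 6.09, 6.18, 6.60 and 7.72 in sh14 and 6.70, 7.78, 7.97 and 8.17 in sh133 (-1.55 ± 0.24, adjusted p = 0.00268). Its matched difference was -1.59 at 6 h and -0.45 at 22 h. The carbonic anhydrase Car1 was bright in both lines, 9.77, 9.74, 9.83 and 10.32 against 10.75, 10.92, 11.08 and 11.04, and did not overlap (-1.15 ± 0.14, adjusted p = 0.000838). The water channel Aqp1 was low at first and higher by 22 h in both, when sh14 read 3.02 and sh133 4.48 (-1.04 ± 0.19, adjusted p = 0.00517). The exception was Icam4, the Landsteiner-Wiener blood group protein, which was higher in sh14 (0.60 ± 0.13, adjusted p = 0.015). The mean level of the 30 genes was higher at later times in both lines, from 5.43 at 1 h to 6.57 at 22 h in sh14 and from 5.64 to 6.84 in sh133. Without the sh133 array at 12 h or at 6 h, 4 and 5 members still passed as lower.

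The Alas2 promoter, chrX:150547167-150547416 on the plus strand (RefSeq, GRCm38.p6), is shown with its 1 AGATAA match in capitals, since this gene had the largest difference of the list. The match, on the opposite strand, starts 86 bases before the start site. Slc4a1 and Car1 had no entry in the table.
Alas2: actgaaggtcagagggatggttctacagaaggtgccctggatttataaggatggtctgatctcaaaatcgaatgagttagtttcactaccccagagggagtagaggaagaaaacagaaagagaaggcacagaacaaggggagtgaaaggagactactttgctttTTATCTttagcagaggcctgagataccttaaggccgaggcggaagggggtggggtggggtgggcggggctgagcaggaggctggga

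Heme and iron genes split in both directions, 5 higher and 5 lower of 27 tested, with a median of -0.03. That was 37.0% of the list against 14.6% of all genes tested. These counts rest on single arrays: without sh133 at 12 h or 6 h, or sh14 at 12 h, 1 passed as higher and 1 as lower, and without the sh14 array at 6 h 2 and 1. After Alas2, the lower ones were led by Alad, the second enzyme of heme synthesis (-0.73 ± 0.17, adjusted p = 0.0163), and Slc25a37, the mitochondrial iron importer mitoferrin (-0.63 ± 0.15, adjusted p = 0.02). Alad read 8.31, 8.92, 9.20 and 9.96 in sh14 and 8.53, 9.65, 10.05 and 10.22 in sh133, with matched differences of -0.73 at 6 h and -0.86 at 12 h and a smaller -0.22 at 1 h and -0.26 at 22 h. The higher ones included the heme transporter Slc48a1 (0.86 ± 0.14, adjusted p = 0.00307), Tspo2 (0.81 ± 0.16, adjusted p = 0.00832) and the mitochondrial glycine carrier Slc25a38 (0.51 ± 0.13, adjusted p = 0.0314).

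None of 24 erythroid transcription factors passed in limma, with 5 lower and 0 higher at an unadjusted p under 0.05. With the variance prior following the mean level 1 passed, and without the date term 3 did. Gata1, the main factor of the lineage, read 7.73, 8.14, 8.07 and 8.54 in sh14 and 7.80, 8.40, 8.49 and 8.62 in sh133, with a difference of -0.27 ± 0.12 (adjusted p = 0.161). Klf1, which drives globin and membrane genes, gave -0.23 ± 0.11 (adjusted p = 0.213), and each of its sh14 arrays was below its partner. Kit, the receptor for stem cell factor, was 6.89, 6.39, 6.23 and 6.31 in sh14 and 7.67, 6.71, 6.43 and 5.95 in sh133, a difference of -0.23 ± 0.22 (adjusted p = 0.556) that was -0.78 at 1 h and 0.36 at 22 h. The progenitor factor Myb gave -0.24 ± 0.16 (adjusted p = 0.378).

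The genes most reduced in sh14 came from many families. Cdh2, which encodes N-cadherin, a calcium-dependent adhesion protein, read 2.11, 2.45, 1.93 and 1.30 in sh14 and 4.72, 5.48, 5.33 and 4.56 in sh133. All sh14 arrays were more than 2 log2 below every sh133 array, and the scr arrays, at 5.04, 5.18, 5.09 and 4.15, overlapped those of sh133. The difference was -3.21 ± 0.16 (adjusted p = 5.25e-06), a signal of 10.8%. Gstt1, a theta class glutathione transferase, read 2.31, 3.25, 3.14 and 3.68 in sh14 and 5.71, 6.09, 6.49 and 6.65 in sh133, again with scr (5.98, 6.36, 6.45 and 6.10) beside sh133 (-3.06 ± 0.22, adjusted p = 3.57e-05). Its relatives Gstm1 (-0.98 ± 0.15) and Gstt3 (-0.64 ± 0.12, near background in sh14) were lower with it, and 6 of 30 glutathione and detoxification genes were lower in all, 2 without the sh133 array at 12 h and 1 without that at 6 h. Higher were 2: Gstz1, an enzyme of tyrosine breakdown (1.80 ± 0.14, adjusted p = 5.68e-05), and Nqo1 (0.43 ± 0.11, adjusted p = 0.0272). In either direction 26.7% of this list passed, against 14.6% of all genes tested.

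Several reductions were very even over time. Ly6k, a GPI-anchored Ly6 protein, read 5.39, 5.11, 5.46 and 5.22 in sh14 and 8.08, 8.38, 8.18 and 8.01 in sh133, with scr between them (-2.97 ± 0.13, adjusted p = 1.85e-06). Fkbp9, a prolyl isomerase of the endoplasmic reticulum, was between 4.41 and 4.92 in sh14 and between 7.41 and 7.64 in sh133 (-2.95 ± 0.13). Nbdy, which encodes a small protein of the mRNA decapping complex, differed by -2.94 ± 0.11, with matched differences of -2.91 at 6 h and -2.92 at 12 h and -2.98 at 1 h and -3.11 at 22 h. The standard errors of these 3 genes were at or near the median over all genes, 0.13.

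Amino acid transporters stood among the large differences in both directions. Slc38a1 (-2.63 ± 0.14) and Slc38a5 (-1.63 ± 0.11), which carry glutamine and other neutral amino acids, were lower in sh14 at each time. Slc38a5 read 6.10, 6.13, 6.33 and 6.92 in sh14 and 7.55, 7.82, 7.99 and 8.48 in sh133, higher at later times in both lines. Slc7a8, the LAT2 transporter of large neutral amino acids, was higher in sh14, at 7.81, 6.37, 6.19 and 4.54 against 7.43, 5.09, 3.55 and 2.92. Its signal was lower at each later time in both lines, with gaps of 1.28 at 6 h and 2.63 at 12 h and 0.38 at 1 h and 1.62 at 22 h (1.78 ± 0.37, adjusted p = 0.0101).

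Others of the largest reductions were Macc1 (-2.64 ± 0.12), Cdca7l (-2.60 ± 0.14), a partner of MYC, the calcium-binding S100a6 (-2.51 ± 0.18), the membrane protein Ifitm2 (-2.44 ± 0.16) and the matrix metalloproteinase Mmp2 (-2.42 ± 0.21). Mmp2 read 4.66, 5.17, 5.51 and 5.97 in sh14 and 7.63, 7.67, 8.03 and 8.00 in sh133, and scr, at 3.95, 4.41, 4.54 and 4.25, was below both. For S100a6 scr lay with sh14, at 2.11, 2.03, 2.30 and 1.85, and sh133 was the line that stood apart. For Macc1 and Cdca7l it lay nearer to sh133.

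On the other side, Sphkap, an anchoring protein for protein kinase A, was among the largest increases. It read 4.85, 5.65, 5.95 and 6.63 in sh14 and 1.81, 1.78, 2.00 and 1.79 in sh133, higher in sh14 at each later time and near background on average in sh133. The difference was 4.06 ± 0.32 (adjusted p = 5.97e-05) with gaps of 3.87 at 6 h and 3.95 at 12 h and 3.04 at 1 h and 4.84 at 22 h. Sapcd1 was bright in both lines, 8.46, 8.48, 8.40 and 8.98 against 6.32, 5.80, 5.73 and 6.12, with no overlap (2.75 ± 0.23, adjusted p = 8.53e-05). Dmxl2, a protein that works with the vacuolar proton pump, read 5.11, 5.35, 5.43 and 5.49 in sh14 and 2.63, 3.28, 3.10 and 3.06 in sh133 (2.24 ± 0.14, adjusted p = 1.8e-05). The transcription factors Nr2f1 (2.17 ± 0.24) and Hand2 (2.10 ± 0.19), known from nervous system and heart development, were also higher, with scr between the lines for both.

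Abca1 and Abcg1, which export cholesterol from cells, were both higher in sh14. Abca1 read 5.96, 5.66, 6.19 and 7.10 in sh14 and 3.83, 3.17, 4.14 and 4.17 in sh133, with no overlap (2.16 ± 0.30, adjusted p = 0.00134). Abcg1 read 6.84, 6.42, 7.02 and 8.11 and 6.38, 5.05, 5.67 and 6.60, with its lowest value at 6 h in both lines (1.30 ± 0.25, adjusted p = 0.00799). At 22 h both genes were at their highest in sh14.

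For the 12 largest increases in sh14 the scr mean lay nearer to sh14 in 8 and nearer to sh133 in 4. For the 12 largest reductions it lay nearer to sh14 in 2 and nearer to sh133 in 10. Over the 1856 genes the scr mean was between the 2 line means for 1225, and it was farther from sh14 than from sh133 for 1248. No scr array shares a title date with an sh14 array, while the sh133 arrays at 1 and 22 h do share one with scr, so a part of the date in these distances cannot be told apart from a part of the line.

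Megakaryocyte genes were split, 3 higher in sh14 and 4 lower of 18 tested, and without the sh133 array at 12 h 2 higher and 0 lower. On all arrays 38.9% of the list passed, against 14.6% of all genes tested. Itga2b, the CD41 integrin chain of megakaryocytes and early progenitors, read 7.26, 7.48, 7.48 and 7.71 in sh14 and 6.11, 6.00, 6.03 and 6.19 in sh133 (1.46 ± 0.24, adjusted p = 0.00316). Its partner chain Itgb3 went the other way, 2.23, 2.56, 2.47 and 2.23 against 3.49, 3.50, 3.36 and 3.37 (-0.98 ± 0.21, adjusted p = 0.0128). Another Itgb3 probe set, near background in sh14, averaged -0.17 over the 4 pairs and 0.00 within the shared date. The tetraspanin Cd9 was higher in sh14 at each time (1.66 ± 0.13, adjusted p = 4.64e-05). Pf4, the platelet chemokine, read 4.91, 4.98, 5.04 and 5.55 in sh14 and 5.08, 7.37, 7.35 and 7.64 in sh133. The lines stood close together at 1 h (-0.18), and from 6 h on sh133 was more than 2 log2 higher (-2.34 ± 0.50, adjusted p = 0.0117). Plek, the protein kinase C substrate pleckstrin of platelets, was at 8.09 to 8.29 in sh133 and 6.69 to 7.44 in sh14 (-1.43 ± 0.24, adjusted p = 0.00384).

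Cxcl3, a chemokine that attracts neutrophils, had the largest difference of all named genes. It read 0.82, 0.86, 0.90 and 0.80 in sh14 and 0.85, 5.03, 5.51 and 3.88 in sh133, and in scr 0.62, 0.22, 0.58 and 0.52. The 1 h arrays of all lines and every array of sh14 and scr were near background, so the lines were apart only where sh133 was raised, at 6, 12 and 22 h. The fitted difference, in which the sh133 arrays at 1 and 22 h have no weight, was -4.45 ± 0.54 (adjusted p = 0.000652). The mean of the 4 pairs was -2.97. As sh14 was near background, the exact size is uncertain. Cxcl3 was the 1 gene lower of 25 tested on the chemokine and cytokine list, of which 8% passed against 14.6% of all genes tested. The receptor Cxcr4 was the 1 higher, at 4.96, 5.93, 5.91 and 5.56 against 4.89, 4.26, 4.62 and 3.86 (1.46 ± 0.27, adjusted p = 0.00563), with 0.07 between the lines at 1 h.

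Of 35 integrins, cadherins and other adhesion genes 4 were higher in sh14 and 5 lower, 25.7% of the list against 14.6% of all genes tested. The counts were 2 and 2 without the sh133 array at 12 h, and 2 and 1 without that at 6 h. Itga6, the laminin receptor chain alpha 6, read 4.20, 4.06, 4.41 and 3.51 in sh14 and 2.49, 2.48, 2.37 and 2.52 in sh133, with no overlap (1.84 ± 0.17, adjusted p = 0.000128). Itgal, the leukocyte integrin chain LFA-1 alpha, read 3.45, 2.77, 2.50 and 2.31 in sh14 and 5.82, 4.67, 3.86 and 3.30 in sh133, lower at each later time in both (-1.67 ± 0.25, adjusted p = 0.00195). Its ligand Icam1 was lower in sh14 as well (-1.16 ± 0.21, adjusted p = 0.00545), near background there.

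**Figure D3:**
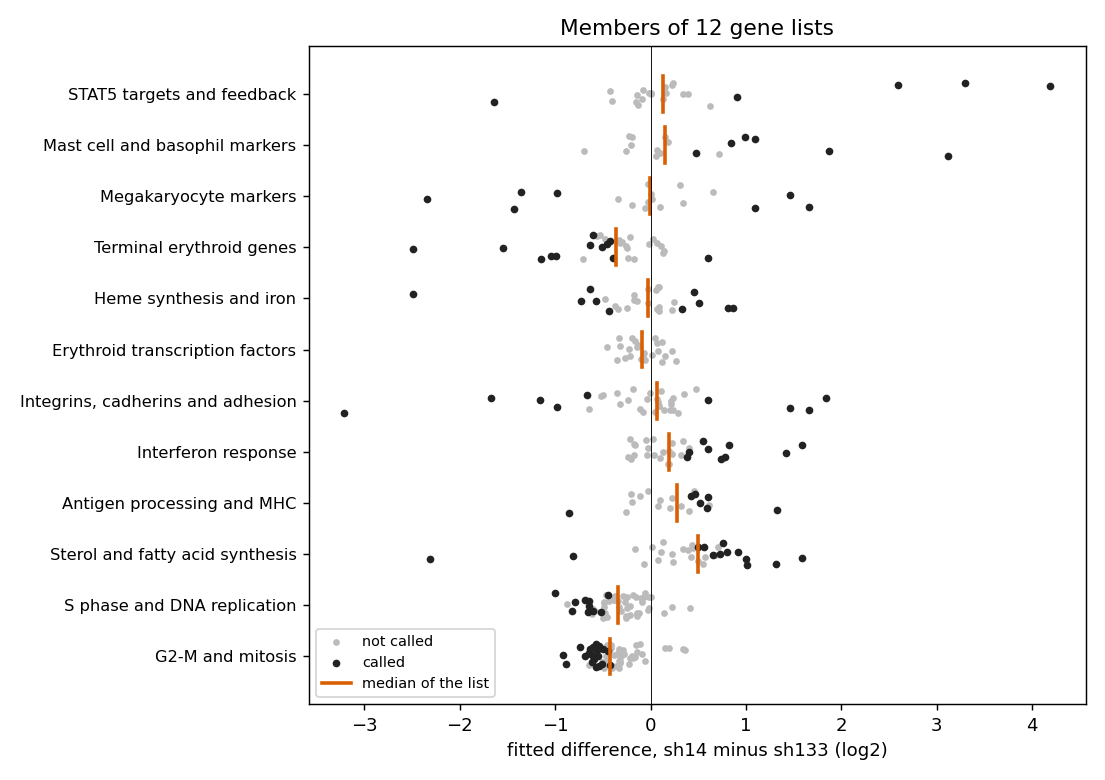
Fitted difference, sh14 minus sh133 in log2 (x axis), of each tested member of 12 gene lists (rows), with members past the threshold in black, the others in grey and the list median as an orange bar. The sterol median lies at 0.50 and the G2-M median at -0.42, and no erythroid transcription factor is black.

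Some genes of cell division were lower in sh14, by modest amounts. Of 58 G2-M and mitosis genes, 20 passed as lower and none as higher (2 at an unadjusted p under 0.05, limma). That was 34.5% of the list against 14.6% of all genes tested, of which 7.11% were lower. The median was -0.42, and 54 of 58 differences were negative, against 6306 of 12673 over all genes. Kif2c, a kinesin that removes wrong chromosome attachments, read 5.66, 6.16, 5.74 and 6.09 in sh14 and 6.61, 6.90, 6.73 and 6.66 in sh133, a difference of -0.92 ± 0.13 (adjusted p = 0.00145). Its lines did not overlap, and its next brightest probe set averaged -0.78 over the 4 pairs. Ndc80, of the outer kinetochore, read 5.55, 5.30, 4.93 and 5.44 and 6.05, 6.14, 5.92 and 5.93 (-0.89 ± 0.17, adjusted p = 0.00736), and Hmmr and Prc1, of the mitotic spindle, gave -0.74 ± 0.14 and -0.69 ± 0.14.

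Of 55 genes of S phase and DNA replication 10 were lower and none higher (1 at an unadjusted p under 0.05), with a median of -0.34. The share that passed was 18.2%, against 14.6% of all genes tested in either direction and 7.11% lower. Gmnn, which encodes the licensing inhibitor geminin, read 7.68, 7.51, 7.59 and 7.68 in sh14 and 8.46, 8.55, 8.63 and 8.52 in sh133 (a fitted signal 49.9% as high, with an SE of 0.16 on the log2 scale, adjusted p = 0.003). The helicase factor Cdc45 (-0.79 ± 0.17) and the flap nuclease Fen1 (-0.69 ± 0.14) were lower too, with no overlap for either. Both counts hang on single arrays. Without the sh133 array at 12 h 1 G2-M gene and 2 S phase genes passed, without the one at 6 h 1 and 0, and without the sh14 array at 12 h 5 and 2. The medians kept their sign, between -0.34 and -0.45 for G2-M without any of these 3 arrays.

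Regulators of the step from G1 to S went both ways. Cdkn2b, the CDK inhibitor p15, was higher in sh14, at 5.57, 5.25, 5.44 and 5.72 against 5.12, 4.57, 4.41 and 4.72 (0.91 ± 0.15, adjusted p = 0.00321). The factor E2f3 was lower, at 4.74, 4.32, 4.59 and 4.04 against 5.40, 5.39, 5.41 and 5.15 (-0.90 ± 0.15, adjusted p = 0.00418). Of the 27 genes of this list 2 were higher and 4 lower, 22.2% against 14.6% of all genes tested. The counts were 1 and 1 without the sh133 array at 12 h and 2 and 0 without that at 6 h. Cdkn2b lies on chromosome 4 and Ccnd2, the other higher one, on chromosome 6.

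Some interferon response genes were higher in sh14: 9 of 30 on the list passed as higher and 0 as lower. That was 30% of the list against 14.6% of all genes tested, of which 7.54% were higher. At an unadjusted p under 0.05 0 were lower as well (limma), and the median was 0.19. Ifitm2, an interferon-induced transmembrane protein gene, was not on this list and was among the largest reductions in sh14 described above. Ifi27, a small membrane protein induced by interferon, read 7.12, 7.25, 7.40 and 7.75 in sh14 and 5.85, 5.77, 5.77 and 6.11 in sh133. No array overlapped, scr lay with sh133, and the difference was 1.59 ± 0.16 (adjusted p = 0.000257). Xaf1, a pro-apoptotic interferon target, read 3.55, 4.45, 4.31 and 4.45 against 2.24, 2.72, 2.89 and 2.74 (1.42 ± 0.24, adjusted p = 0.00361). Bst2, the tetherin that holds budding viruses, gave 0.82 ± 0.12 (adjusted p = 0.00175). Without the sh133 array at 12 h 2 of the 30 passed, and without that at 6 h 3. The mean level of the list was 4.08 to 4.36 in sh14 and 3.85 to 3.98 in sh133, higher in sh14 at each time.

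Of 20 antigen processing and MHC genes 6 were higher in sh14 and 1 lower, with a median of 0.28. That was 35% of the list against 14.6% of all genes tested. Erap1, which trims peptides for class I molecules, read 5.45, 5.63, 5.53 and 5.19 in sh14 and 4.24, 4.24, 4.30 and 3.63 in sh133 (1.33 ± 0.17, adjusted p = 0.000932). The immunoproteasome subunits Psmb9 (0.60 ± 0.13, adjusted p = 0.0103) and Psmb8 (-0.85 ± 0.18, adjusted p = 0.0106) differed in opposite directions. Psmb8 read 5.73, 5.80, 5.79 and 5.51 in sh14 and 7.15, 6.66, 6.54 and 6.19 in sh133, with no overlap. The class I gene H2-K1 was bright and differed by 0.51 at 6 h and 0.56 at 12 h within the shared date but by 0.08 at 1 h and 0.01 at 22 h across, and it was not past the threshold without the date term (0.52 ± 0.10 with it, adjusted p = 0.00832). Without the sh133 array at 12 h or at 6 h, 1 gene of the list passed as higher.

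Of 31 sterol and fatty acid synthesis genes 11 passed as higher in sh14 and 2 as lower, with a median of 0.50, the largest of the 30 lists described. In either direction 41.9% of the list passed, against 14.6% of all genes tested. The median of the genes' means over the 4 pairs was 0.21. The median matched difference was 0.10 at 1 h, 0.55 at 6 h, 0.42 at 12 h and -0.39 at 22 h. The mean level of the list in sh14 was 7.23, 7.36, 7.39 and 6.89 at these times, and in sh133 it was 7.22, 6.87, 7.03 and 7.21. These means were close at 1 h, lower in sh133 at 6 and 12 h and lower in sh14 at 22 h, which was not tested for the list. Members differed: at 22 h Acss2 was still 1.17 and Tm7sf2 0.76 higher in sh14. The 22 h pair lies across the title dates, and the levels of sh14 at 12 and 22 h share a date. With no date term 6 passed as higher, within the shared date 19, and without the sh14 array at 22 h 19. It was 7 without the sh133 array at 12 h and 4 without that at 6 h.

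Dhcr7, the last enzyme of cholesterol synthesis, read 7.21, 7.41, 7.45 and 6.77 in sh14 and 6.81, 6.32, 6.36 and 6.72 in sh133 (1.00 ± 0.16, adjusted p = 0.00273). Its matched difference was 1.09 at 6 h and 0.06 at 22 h. Tm7sf2, a sterol reductase, read 5.07, 4.99, 5.19 and 5.00 and 4.52, 3.45, 3.52 and 4.23, level in sh14 and lowest at 6 and 12 h in sh133 (1.59 ± 0.12, adjusted p = 3.64e-05). Acss2, which makes acetyl-CoA from acetate, was higher in sh14 at all times, without overlap (1.01 ± 0.14, adjusted p = 0.00146). The largest difference in the list was a reduction. Insig1, the sterol-regulated protein that holds SREBP factors in the endoplasmic reticulum, read 4.74, 4.57, 4.49 and 3.54 in sh14 and 7.20, 6.56, 6.79 and 6.77 in sh133, with scr beside sh133 (-2.31 ± 0.24, adjusted p = 0.00029). Insig1 was lower at all times, so it did not follow the crossing of the list.

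**Figure D4:**
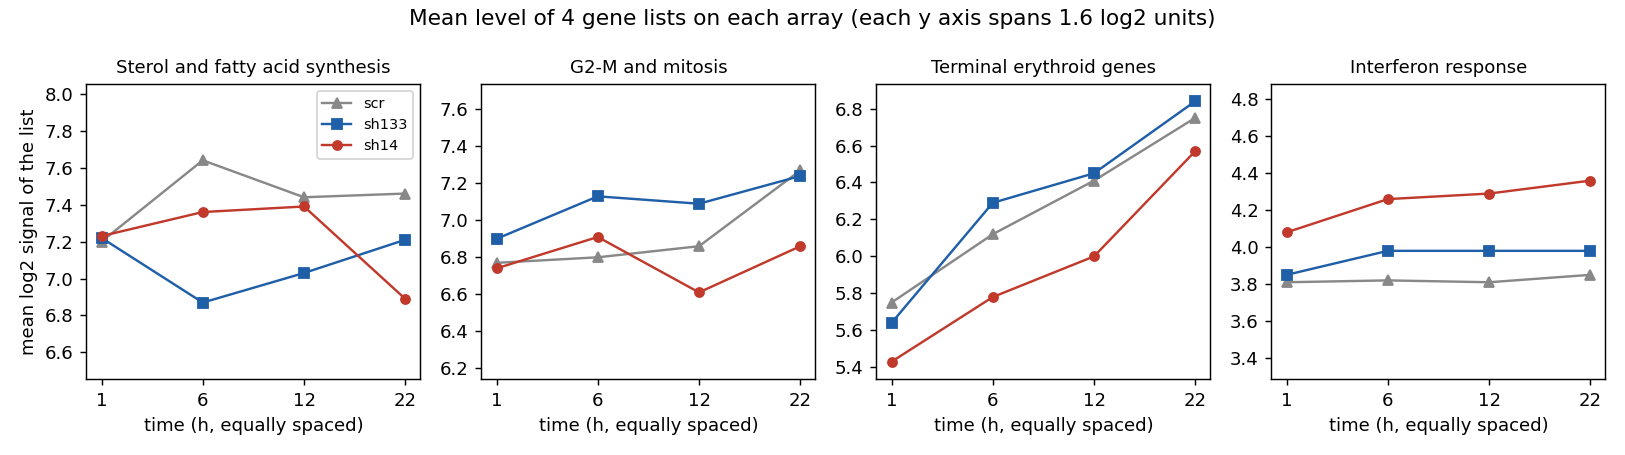
Mean log2 signal (y axis) of the tested genes of 4 lists on each array at 1, 6, 12 and 22 h (x axis, equally spaced), with sh14 as red circles, sh133 as blue squares and scr as grey triangles. The sterol lines cross between 12 and 22 h, sh14 is below sh133 at each time for the G2-M and terminal erythroid lists, and above it for the interferon list.

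Other lists stood near or below the background share, the 14.6% of all genes tested that passed. The ATF4 and unfolded protein response list, at 16.2%, and the p53 target list, at 18.2%, were above it. The immediate early list, at 6.25%, was below it, as were the glycolysis and hypoxia, ribosome biogenesis and BCL2 family lists. Members of these lists are named below as single genes. Of 37 genes of the ATF4 and unfolded protein response 6 were higher and 0 lower (1 at an unadjusted p under 0.05, limma), among them Sel1l and Edem1, of the disposal of misfolded proteins (0.61 ± 0.11 and 0.62 ± 0.12). The 6 became 0 without the sh133 array at 12 h or at 6 h, and 2 without the sh14 array at either time. The median matched difference of this list was 0.41 at 6 h and -0.27 at 22 h. Of 35 glycolysis and hypoxia genes 3 were higher and 2 lower, and of 44 ribosome biogenesis genes 3 and 2, and without either of those sh133 arrays 0 of both lists passed in either direction. The 3 higher glycolysis genes, Gapdh (0.58 ± 0.12), Tpi1 (0.54 ± 0.12) and Hk2 (0.49 ± 0.14), all lie on chromosome 6, while Pgk1, on the X chromosome, was lower (-0.59 ± 0.13). Gapdh and Actb are often used as controls, and Actb was lower in sh14 (-0.33 ± 0.10, adjusted p = 0.0497). Of 32 immediate early genes 1 was higher, the ERK inhibitor Spred1 (0.71 ± 0.13), and 1 lower, the phosphatase gene Dusp1 (-1.18 ± 0.18). Of 22 p53 target genes 3 were higher and 1 lower in these p53-null cells, led by Perp (1.12 ± 0.16) and with Cdkn1a as the lower one (-0.46 ± 0.14). Of 16 BCL2 family genes 2 were higher, Bid (0.91 ± 0.14) and Pmaip1 (0.81 ± 0.17). With the sh133 array at 12 h left out 1 p53 target and 0 BCL2 genes passed.

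The genes that differed were unevenly placed on the chromosomes. Of 448 tested genes of chromosome 12, 132 were higher in sh14, 29.5%, against 7.54% over all chromosomes, and 18 were lower. On chromosome 6 it was 125 of 626 (20.0%) higher, on chromosome 4 109 of 789 (13.8%), and on chromosome 13 72 of 444 higher and 85 lower (16.2% and 19.1%). These 4 chromosomes hold 18.2% of the genes tested and 45.9% of the genes higher in sh14. On the other chromosomes between 2.75% and 8.72% of genes were higher. With the 4 set aside 1257 genes remained past the threshold of 10366, 517 higher and 740 lower, or 12.1%.

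In map order the differences came in stretches, read as the median of 41 neighbouring tested genes. On chromosome 12 the highest stretch runs from Pik3cg to Ppp2r3c, with a median of 0.63 and 26 of 41 genes higher and 0 lower. On chromosome 13 the stretch from Gdi2 to Stard3nl had a median of -0.63 with 26 lower and 1 higher, and that from Exoc3 to Msh3 had 0.37 with 17 higher and 2 lower. Chromosome 6 reached 0.57 between Cacna1c and Phb2, with 22 higher and 0 lower, and chromosome 4 0.30 between Tmem69 and Svbp, with 13 higher and 1 lower. On the other chromosomes no stretch of 41 genes had a median above 0.20 or below -0.18. The stretches were similar in size within the shared title date and across dates: 0.61 and 0.57 on chromosome 12, and -0.64 and -0.67 for the low one on chromosome 13. On chromosome 6 the values were 0.54 and 0.29.

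Relative to scr, the chromosome 12 stretch had a median of -0.45 in sh133 and 0.11 in sh14, the low chromosome 13 stretch 0.09 in sh133 and -0.48 in sh14, and the chromosome 6 stretch -0.12 in sh133 and 0.32 in sh14. Among the genes described above, Nr2f1, Erap1, Pik3r1, Gmnn, E2f3 and Syk lie on chromosome 13, Abca1, Cdkn2b, Alad and Kif2c on chromosome 4, Ifi27, Gstz1, Sel1l, Macc1 and Cdca7l on chromosome 12, and Mitf, Gata2, Cd9, Ccnd2, Itpr2, Gapdh, Tpi1, Hk2, Bid, Edem1, Fkbp9 and Aqp1 on chromosome 6. Of these, Nr2f1 and Erap1 lie within the high stretch of chromosome 13, Kif2c within that of chromosome 4 and Bid within that of chromosome 6. The others lie outside the stretches described. Macc1, Cdca7l, Fkbp9, Aqp1, Alad and Kif2c were lower in sh14, against the main direction of their chromosomes. Copy number was not measured.

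**Figure D5:**
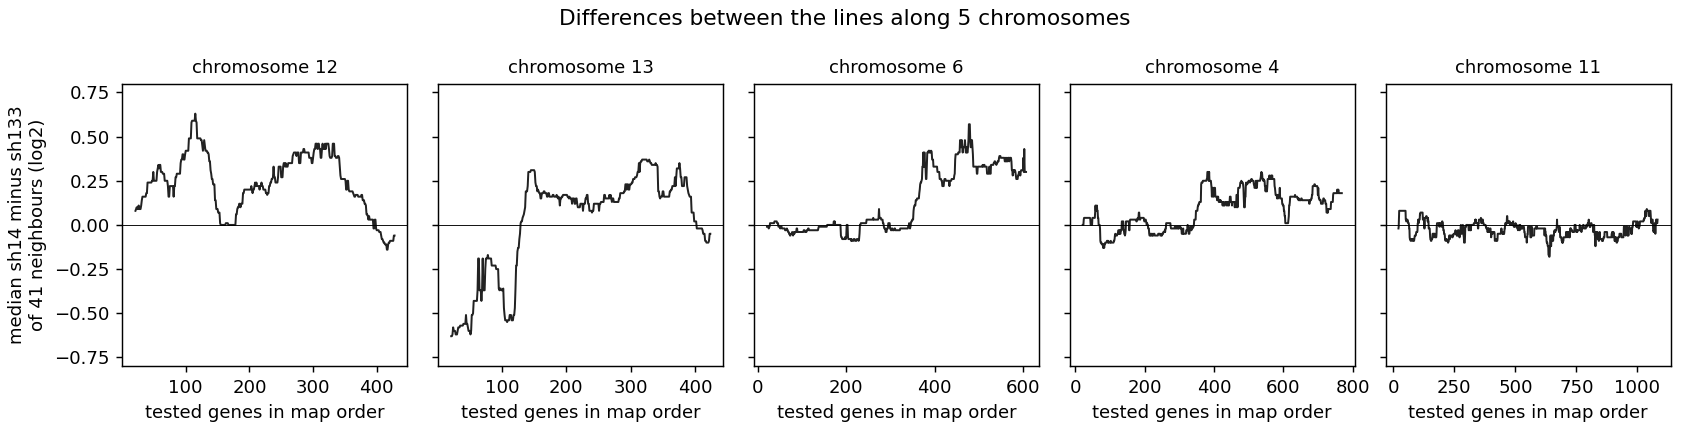
Median fitted difference, sh14 minus sh133 in log2 (y axis), over 41 neighbouring tested genes, against gene order (x axis) on chromosomes 12, 13, 6 and 4, with chromosome 11 as a chromosome without such a stretch. Chromosome 12 rises to 0.63, chromosome 13 starts near -0.63 and turns positive, and chromosome 11 stays between -0.18 and 0.09.

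Whether the gap between the lines depended on time was tested as a difference between the lines' slopes, each in log2 signal per doubling of the hours. At an adjusted p under 0.05, 2 of 12673 genes passed (0.0158%), while 1577 (12.4%) had an unadjusted p under 0.05. Lxn, which encodes the carboxypeptidase inhibitor latexin, read 1.66, 2.14, 2.01 and 2.02 in sh14 and 4.43, 4.31, 3.75 and 2.61 in sh133. From 1 to 22 h it moved by 0.35 in sh14 and by -1.81 in sh133, where each later array was lower, and its slope difference was 0.49 ± 0.04 (adjusted p = 0.0346). Cxcl3, described above, was the other, at -0.66 ± 0.06 (adjusted p = 0.0346). Leaving out 1 array left no call for 9 of the 12 arrays and 1 call for each of the other 3. No gene passed without the date term, and 26 passed with a variance prior that follows the mean level.

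Genes with the next smallest p did not pass and are given as values. Dusp6, a phosphatase that turns off ERK, read 2.69, 1.76, 1.93 and 1.86 in sh14 and 4.44, 1.79, 1.45 and 1.45 in sh133 (slope difference 0.48 ± 0.06, adjusted p = 0.1). Its matched difference was -1.75 at 1 h and 0.41 at 22 h. Pik3ip1, an inhibitor of PI3 kinase, read 3.98, 3.52, 3.45 and 3.70 and 4.93, 2.93, 2.73 and 2.66, with a high first value in sh133 (0.44 ± 0.06, adjusted p = 0.1). The melanocortin receptor gene Mc1r was 1.90, 2.94, 3.21 and 3.99 in sh14 and 2.55, 2.29, 2.26 and 2.53 in sh133 (0.45 ± 0.06, adjusted p = 0.1). In the other direction Stc2, a secreted glycoprotein, went from 4.55 to 3.78 in sh14 and from 3.68 to 4.21 in sh133 (-0.30 ± 0.05, adjusted p = 0.1). Pf4 had a slope difference of -0.42 ± 0.06 (adjusted p = 0.105).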

How the data were processed

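Per the labels' protocols, total RNA of the 12 I/11 samples was amplified, biotinylated and read on Affymetrix whole-genome mouse arrays. Per the submitters' processing notes, RMA made the deposited log2 signals of probe sets. Which version was run is not given in the sources used here. This method gives the probes of all arrays 1 distribution, so a change in total RNA would not show. The signals ran from 0.04 to 13.1 over 45101 probe sets, with 0 columns left unused.

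The platform annotation gave gene names: 34958 probe sets had 1 gene, 932 several (not used) and 9211 none. Entrez identifiers matched 34754 to the RefSeq table of GRCm38.p6, used for current symbols, chromosomes and gene order. The probe set of highest mean stood for each of 18194 genes. A gene was tested if that mean reached log2 1.45, the 40th percentile over probe sets, as 12673 did.

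Differences were fitted with limma 3.58.1 in R 4.3.3 on all 12 arrays, with hairpin, time as a factor and title date, moderated variances and Benjamini-Hochberg adjustment over 12673 genes. A gene is said to be higher or lower, or to pass, at an adjusted p under 0.05, and values after ± are standard errors. The design leaves 5 residual degrees of freedom, and the number of arrays limits the precision. Slopes on log2 hours of each hairpin line were added for the test of time. For the date term itself 0 genes passed and 694 had an unadjusted p under 0.05. Arrays are paired by time, and replicate numbers follow deposit order and pair nothing. Figures and counts used Python 3.11.15. The scripts were tested on simulated data.

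Always named were Plcg1, Plcg2, Epor, Jak2, Stat5a, Stat5b, Gata1, Gata2, Klf1, Kit, Myb and Alas2. Then came genes past the threshold with 1 sign in all 4 pairs: the 12 largest differences in each direction, and the 10 largest with both line means above the median gene (log2 4.64). From each list up to 4 members passing in each direction were taken, and for slopes the 5 of smallest p per direction. Some of these genes were left unnamed for length, and predicted genes were not named. Cell type markers, among them Cpa3, come from a list of their own. Cish, Srgn and the genes that bound a stretch of a chromosome were named for their place and not by the rule. The members compared, the 30 lists and the rule were chosen with earlier results of these data known. The alternatives were other date and time terms, array subsets, filters, probe set rules, normalizations and variance models, each array left out, and, chosen after seeing the data, chromosomes 4, 6, 12 and 13 set aside.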

Additional observations from a re-analysis of the deposited data

Results flagged for a closer look

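For each gene named, the 4 arrays of sh14 and the 4 of sh133 were searched for 1 array lying apart from the other 3 by Dixon's criterion. Of 236 such groups 21 had one, where chance gives about 1 in 20 groups, and the arrays of a line differ in time, so an array that lies apart can be a time that does. None was a 6 h array, 10 were 1 h arrays (3 of sh14, 7 of sh133), 9 were 22 h arrays (4 and 5) and 2 were 12 h arrays (1 and 1).

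At 1 h in sh133 the arrays apart were those of Csn1s2a (4.60), Gask1b (4.84), Pf4 (5.08), Mitf (2.66), Cdkn1a (6.33), Dusp6 (4.44) and Pik3ip1 (4.93). For the caseins and Pf4 this is the array at which both lines stood closest. At 1 h in sh14 they were Mitf (4.17), Xaf1 (3.55) and Cdkn1a (5.84), so Mitf and Cdkn1a stood apart at 1 h in both lines. At 22 h in sh14 the levels of Stat5a (5.20), Csn1s2a (3.60), Sapcd1 (8.98) and Car1 (10.32) lay apart, and at 22 h in sh133 those of Fkbp9 (7.41), Pik3r1 (5.80), Erap1 (3.63), Icam1 (2.26) and E2f3 (5.15). The 12 h arrays were those of S100a6 in sh14 (1.73) and Sphkap in sh133 (2.00).

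The change with time differed between the lines, by the test of the slope difference, for Lxn (0.49 per doubling of hours, sh14 minus sh133) and Cxcl3 (-0.66).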

How the results depend on the processing

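The 1856 genes that passed, 955 higher and 901 lower, became 3132 (1523 and 1609) without the date term and 2929, of them 1517 lower, on the 8 hairpin arrays without it. They became 958 (462 and 496) without moderated variances and 1059 (501 and 558) without the time term. With chromosomes 4, 6, 12 and 13 set aside, an alternative chosen after seeing the data, 517 were higher. Leaving out 1 array at a time gave 390 to 2206 in all, 163 to 1147 higher and 184 to 1059 lower. The lowest total was without sh133 at 12 h. The filters, averaging of probe sets, quantile normalization, median centring, limma-trend, the 8 hairpin arrays with the date term and the fit within the shared date stayed within 1.5 times of each count, and in no setting did a gene pass in the opposite direction.

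The 2 slope differences became 0 without the date term and 0 with a filter at the 60th percentile, 26 with limma-trend, 7 on untransformed hours and 0 to 1 with 1 array left out.

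Of 105 named genes that passed, 0 changed sign in any setting, 48 passed in all settings other than those that leave out an array, and 44 whichever array was left out. Within the shared date Ptpn11, Pmaip1 and Actb no longer passed, and without the date term H2-K1 did not. Genes that changed sign had not passed. Without the date term, on 12 arrays or on the 8 hairpin arrays, Plcg2 gave -0.02, Stat5b -0.01 and Dusp6 -0.22. Jak2 gave 0.01 without the time term. With 1 array left out Plcg2 ranged from -0.03 to 0.14, Stat5b from -0.08 to 0.10 (a further negative value was -0.02), Dusp6 from -0.04 to 0.51 and Stc2 from -0.01 to 0.50. The cause of these changes was not tested. Arrays of equal time are paired by the time term in the fit reported. With replicate numbers as the block, no paired analysis was possible because they follow deposit order and mark no pairs. Signals near background limit Fcer1a, Syk and other dim genes, whose differences may understate a change.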

Other observations

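Some genes outside the groups above differed as much as those within them. Btn1a1, which encodes the butyrophilin of the milk fat globule, was lower in sh14, at 2.50, 1.78, 2.24 and 2.20 against 4.49, 3.92, 4.53 and 4.08 in sh133 at 1, 6, 12 and 22 h (-2.45 ± 0.38 SE, limma adjusted p = 0.00233). Its direction was the opposite of that of the caseins, and its 4 matched differences lay between -2.29 and -1.87. Btn1a1 lies on chromosome 13, where 19.1% of genes tested were lower in sh14 and 16.2% higher. Gask1b, a kinase-like protein of the Golgi, read 5.38, 3.82, 3.56 and 2.57 in sh14 and 4.84, 1.22, 1.17 and 1.29 in sh133, lower at 22 h than at 1 h in both and higher in sh14 at each time (2.19 ± 0.46, adjusted p = 0.011). Phlda2, an imprinted gene that limits placental growth, was 6.16, 6.65, 6.93 and 5.82 in sh14 and 5.69, 5.16, 4.97 and 4.54 in sh133, with no overlap (1.74 ± 0.18, adjusted p = 0.000257).

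The MYC antagonist Mxi1 was lower in sh14, between 5.60 and 6.19 against 6.73 to 6.97 (-1.01 ± 0.18, adjusted p = 0.00545). Fcgr2b, the inhibitory receptor for IgG, was the 1 myeloid marker of 16 tested that passed, at 5.27, 5.49, 5.48 and 5.25 in sh14 and 4.55, 4.74, 4.71 and 4.75 in sh133 (0.72 ± 0.10, adjusted p = 0.00168). The myeloid share was 6.25%, below the 14.6% of all genes tested. Among 11 histone genes tested 2 were higher and 1 lower, 27.3% of the list against 14.6% of all genes tested. Without the sh133 array at 12 h or at 6 h, 1 in all passed. Macroh2a1, a variant linked to silent chromatin, read 8.25, 8.57, 8.43 and 8.04 in sh14 and 8.27, 8.00, 7.89 and 7.23 in sh133, close together at 1 h and higher in sh14 from 6 h on (0.58 ± 0.15, adjusted p = 0.0304). Of 11 genes often used as controls of RNA input 3 were higher in sh14 and 3 lower, 54.5% of the list against 14.6% of all genes tested and the highest share among the 30 lists. None of them passed without the sh133 array at 12 h or at 6 h.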
